A study of Mus musculus with 6 samples.

Results

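The 35 genes described here are interferon-stimulated genes and genes of antigen presentation by class I molecules, chosen by gene symbol from a written list. No measured value enters the rule, but the list was drawn up with earlier results of these data known. Of these 35 genes, 33 had a row in the table of 17213 counted genes, and 32 had enough counts to be tested for a difference between genotypes. They comprise sensors of viral nucleic acid, transcription factors, antiviral effectors of several families and the parts that make and load peptides for display at the cell surface. Oas2 and Mx1 had no row in the count table and were listed at 0 in all 6 libraries in the tables of estimated counts and FPKM (fragments scaled by transcript length and library size).

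Type I interferons are secreted when cells sense viral nucleic acid. Type I interferon binds a receptor pair that activates JAK kinases, which phosphorylate STAT2; it joins IRF9 in a complex that binds a DNA element with repeated GAAA letters, the interferon-stimulated response element (ISRE). Interferon gamma has its own receptor and acts through a gamma-activated site (GAS) in DNA and, in turn, through IRF1. The genes switched on block viral RNA, viral entry and viral budding, and raise the display of peptides, which immunoproteasome subunits cut, the TAP transporter carries into the endoplasmic reticulum, and heavy chains with beta-2 microglobulin present to cytotoxic T cells. Many of these genes also have a basal level in uninfected connective tissue cells.

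RNA was measured in dental follicle cells, the connective tissue cells around the unerupted tooth, taken from mandibular molars of mice at postnatal day 8. Cells with the red reporter tdTomato, which marked cells expressing the secreted peptide PTHrP, were sorted before their RNA was amplified and sequenced in bulk. The comparison concerns Pth1r, the receptor for PTH and PTHrP. The 3 libraries labelled KO carry the genotype Pth1r(-/-) and the 3 labelled Het carry Pth1r(+/-), so by the labels both groups lack at least 1 copy of the gene in the targeted cells. Per the series text the loss was conditional in both groups and started by tamoxifen, which both received. The series text gives postnatal day 3 for the tamoxifen pulse and the sample descriptions give day 8. The labels do not name the promoter that drives the recombinase. Whether replicates are separate animals is not stated in the labels; p-values here therefore cover the spread among these 6 samples, part or all of which may be technical. In bulk RNA, fewer cells of a type and less RNA per cell cannot be told apart.

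The libraries held 51804736 to 66147200 counts in the group labelled KO and 34019925 to 63787622 in the group labelled Het. The targeted gene went against the labels. Pth1r was at 961, 608 and 472 CPM (counts relative to the library total after TMM scaling, always in the order of replicates 0, 1 and 2) in libraries labelled KO, against 371, 286 and 346 CPM in those labelled Het. Every library labelled KO was above every library labelled Het. The log2 fold change was 1.02 (standard error 0.28, 95% confidence interval 0.40 to 1.65). The unadjusted edgeR p was 0.00489 and the adjusted p was 0.740, and DESeq2 gave an adjusted p of 0.0554. Which exons the reads cover is not resolved by counts per gene. Het replicate 2 stood apart on the first principal component, which held 40.6% of the variance, and had 14668 genes detected against 15175 to 16128 elsewhere. Summed levels of 10 follicle and mesenchyme markers were 47696 to 84980 CPM in libraries labelled KO and 32535 to 67428 CPM in those labelled Het. Dental epithelium markers were also present, at summed levels of 5039 to 10440 CPM and 5182 to 8143 CPM in libraries labelled KO and Het.

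The start regions of the genes were read first, to look for letters like those of the ISRE and the GAS. A RefSeq promoter window of 300 bases, 250 before and 50 after the annotated start in the GRCm38.p6 assembly, was found for 26 of the 35 genes. The letters GAAANNGAAA, or TTTCNNTTTC on the other strand, occurred in 12 of these 26 (46.2%), against 3.99% of the 27025 genes with a window. The 12 were Ifih1, Ddx58, Stat2, Ifit1, Ifit3, Oas1a, Isg15, Gbp2, Gbp3, Rsad2, Bst2 and B2m. The letters TTCNNNGAA, which read the same on both strands and resemble a GAS, occurred in 6 of the 26 (23.1%), against 9.55% of all genes. The list was made of interferon response and class I genes, so higher shares than over all genes follow in part from that choice. A match is a stretch of letters and not a measured binding site, and matches on 1 strand may overlap each other. The stretches just before the start are shown for the pair of IFIT genes that differ most in their values below, for Isg15 and Bst2 with runs of overlapping matches, and for B2m, the most abundant of the genes. Sequences are from RefSeq, 5′ to 3′ in the direction of transcription, without bases that GENCODE annotates as exon, and capitals mark the ISRE-like letters.
Ifit3 (chr19:34583369-34583528, plus strand): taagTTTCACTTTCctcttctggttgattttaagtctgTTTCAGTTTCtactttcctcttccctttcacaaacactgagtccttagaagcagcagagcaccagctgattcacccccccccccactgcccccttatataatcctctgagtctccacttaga
Ifit1 (chr19:34640744-34640870, plus strand): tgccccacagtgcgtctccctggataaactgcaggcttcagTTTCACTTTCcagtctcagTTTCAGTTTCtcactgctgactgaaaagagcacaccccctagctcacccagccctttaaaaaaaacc
Isg15 (chr4:156200819-156200978, minus strand): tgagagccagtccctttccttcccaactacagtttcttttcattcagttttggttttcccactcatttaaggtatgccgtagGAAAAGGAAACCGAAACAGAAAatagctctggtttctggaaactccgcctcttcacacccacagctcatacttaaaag
Bst2 (chr8:71537473-71537632, minus strand): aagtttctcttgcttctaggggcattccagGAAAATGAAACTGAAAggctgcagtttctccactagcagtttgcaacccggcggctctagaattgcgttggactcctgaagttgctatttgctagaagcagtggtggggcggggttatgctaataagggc
B2m (chr2:122147527-122147685, plus strand): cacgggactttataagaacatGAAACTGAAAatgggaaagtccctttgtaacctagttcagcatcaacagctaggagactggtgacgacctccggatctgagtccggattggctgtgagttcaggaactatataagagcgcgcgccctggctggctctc
The start used is that of the RefSeq promoter table, which for Ifit3 is the base after the stretch shown and lies inside the wider RefSeq gene span given below. Counted from that start, the matches begin at -156 and -122 in Ifit3 and at -104 and -85 in Ifit1, each pair being 2 separate copies. In Isg15 3 matches at -78, -72 and -66 share letters in 1 run, and in Bst2 the 2 matches at -130 and -124 do so. B2m has a single match at -139. The fitted values of genes with such matches lay on both sides of 0. Ifit3 and Ifit1, which both hold 2 copies, had fitted log2 fold changes of -2.08 and 0.46, neither past the adjusted threshold.

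Levels of the genes spanned a wide range. To compare genes with each other, FPKM, which is scaled by length, was averaged over all 6 libraries. The class I light chain B2m led with 168 FPKM, followed by the heavy chain H2-D1 with 43.6, Ifi35 with 29.9, Irf1 with 28.3 and the heavy chain H2-K1 with 18.3 FPKM. Bst2 (13.5), Tap1 (12.8) and Psmb8 (12.6 FPKM) completed the 8 genes with a mean of at least 10 FPKM. A further 15 were between 1 and 10 FPKM and 10 were under 1 FPKM, down to Zbp1 at 0.269 and Oas1a at 0.00846 FPKM. The median over the 33 genes was 3.30 FPKM, against 5.20 FPKM over all 17213 genes. Class I presentation supplied 5 of the 8 genes in the top class, and the 4 sensors ranked 23 to 32 of 33.

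**Figure D1:**
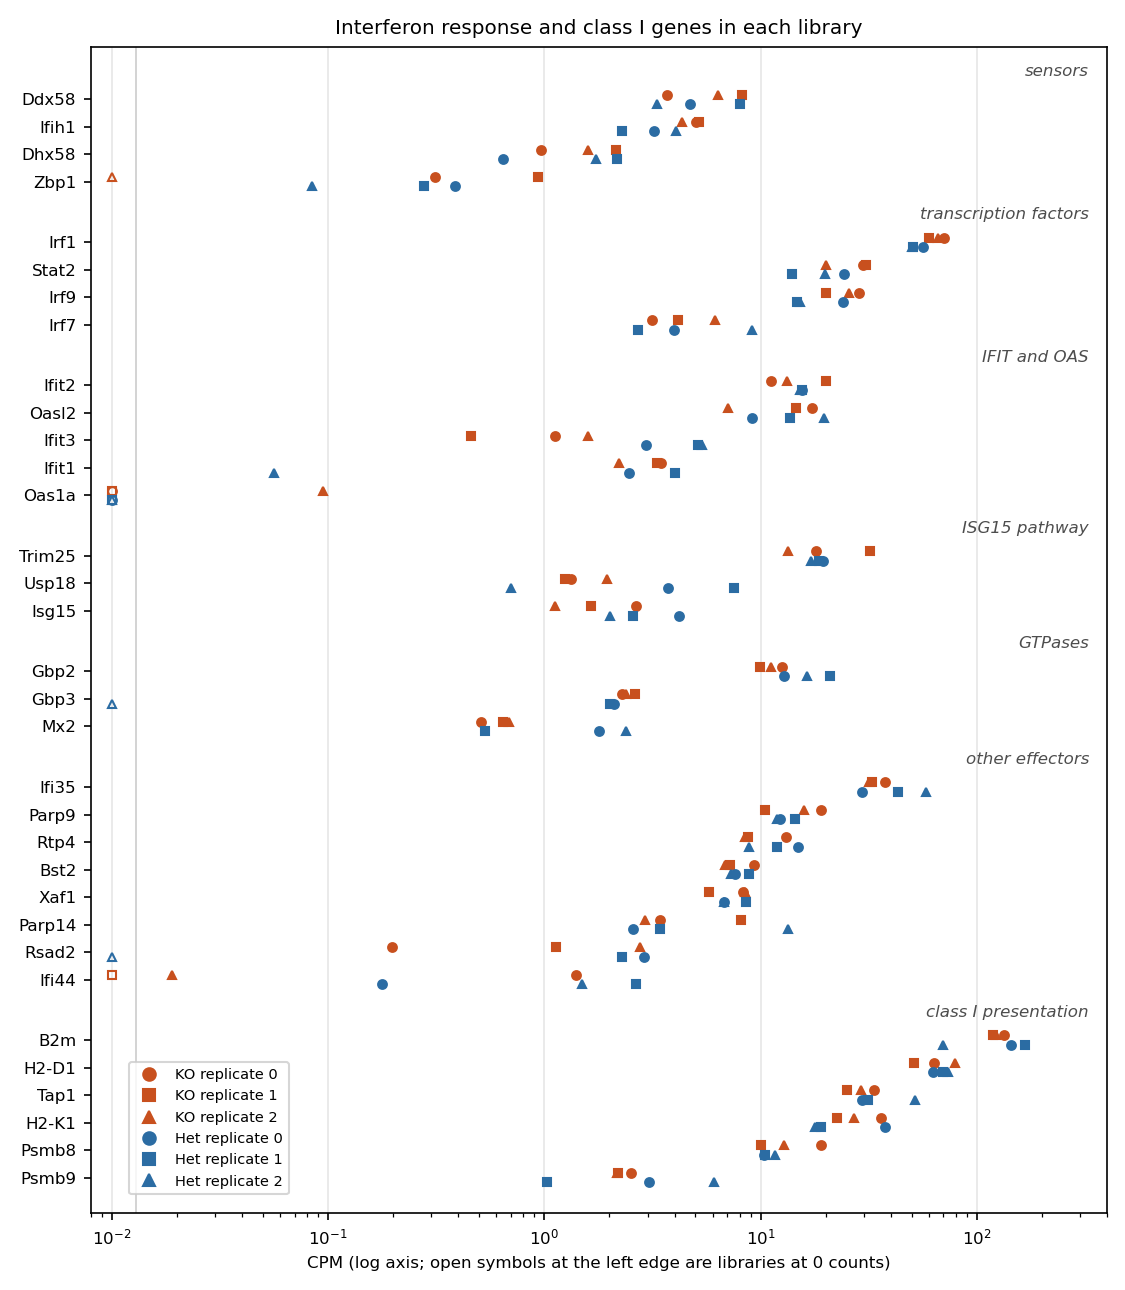
CPM (log axis) of the 33 genes with a row in the count table, by role, in the 3 libraries labelled KO (orange) and the 3 labelled Het (blue), with 1 symbol per replicate and open symbols at the left edge for libraries at 0 counts. B2m lies at 70.0 to 168 CPM while Oas1a has counts in KO replicate 2 only, and in most rows orange and blue symbols are interleaved.

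Across the genotypes, none of the 32 genes tested passed an adjusted p of 0.05 in edgeR's quasi-likelihood test, where the calls over all genes were likewise 0 of 14632 (0%). DESeq2 called 0 of the 32, against 87 of 16763 genes (0.519%). The smallest adjusted p of these genes was 0.976 in edgeR and 0.160 in DESeq2, with Ifit3 as the gene in DESeq2. At an unadjusted edgeR p under 0.05, 1 gene was lower in libraries labelled KO, against 1.71% of all genes, and 0 were higher, against 2.58%. Fitted values were lower in the KO group for 18 of the 32 and higher for 14; over all genes 51.0% were lower. The median log2 fold change was -0.04 over the 32 genes and -0.01 over all genes. For 2 genes, Ifit3 and Gbp2, every library labelled KO was below every library labelled Het, against 4.83% of all genes. For 3 genes, Ifih1, Irf1 and Gbp3, every library labelled KO was above every library labelled Het, against 5.84%. These counts are 6.25% and 9.38% of the 32 genes, and rest on 2 and 3 genes. Set against the Het library of the same replicate number, the KO library was lower in all 3 pairs for 4 genes (Ifit3, Gbp2, Isg15 and Rtp4), against 14.9% of all genes. It was higher in all 3 pairs for 5 genes (Ifih1, Irf1, Gbp3, Irf9 and Stat2), against 16.2% of all genes. As shares of the 32 genes these are 12.5% and 15.6%, close to the background.

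**Figure D2:**
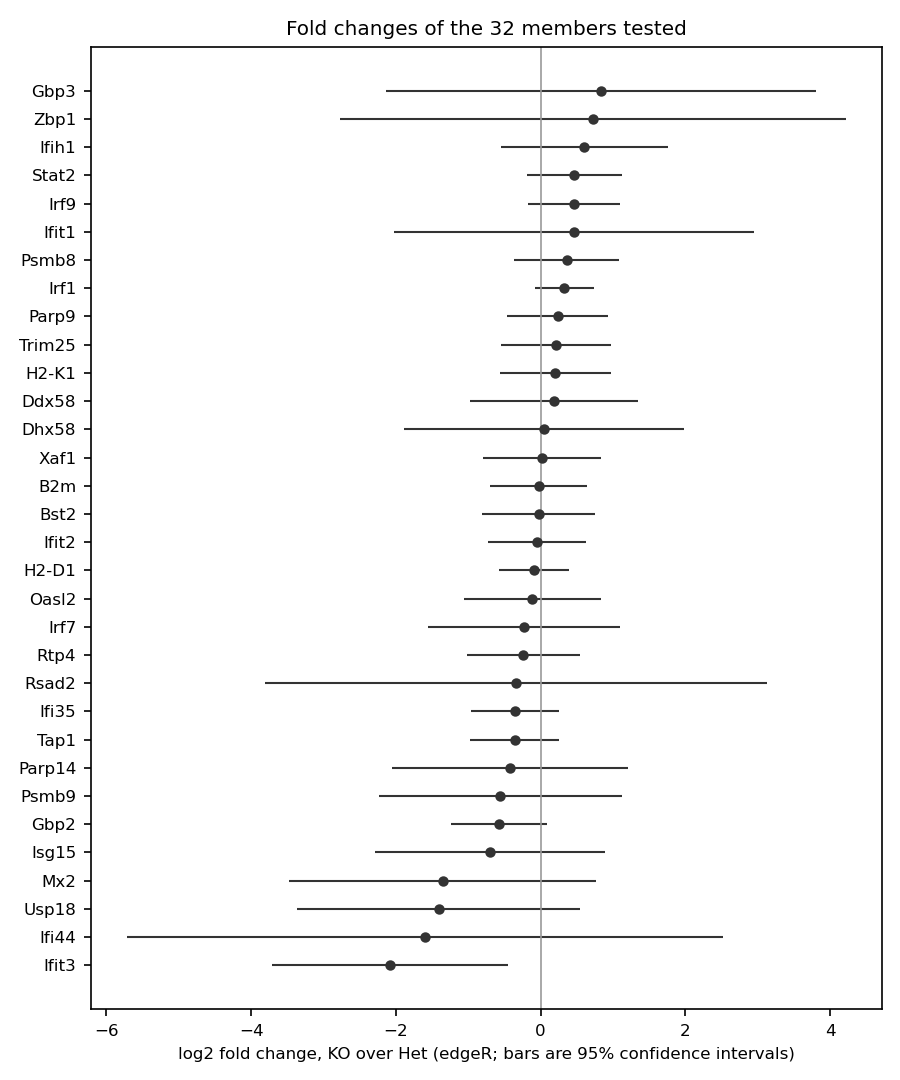
Log2 fold change of KO over Het (edgeR, horizontal axis) for the 32 genes tested, with bars for the 95% confidence interval. Points run from -2.08 for Ifit3 to 0.83 for Gbp3, and all intervals except that of Ifit3 include 0.

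The sensors were present at low levels in both groups. Ifih1, which encodes MDA5, a sensor of long double-stranded RNA, was at 5.02, 5.19 and 4.32 CPM in libraries labelled KO, against 3.22, 2.28 and 4.07 CPM in those labelled Het. The groups did not overlap, but the lowest KO library and the highest Het library were close. The means were 4.84 ± 0.463 and 3.19 ± 0.895 CPM in the KO and Het groups (SD, n = 3 each). This gave a log2 fold change of 0.60 (standard error 0.51, edgeR adjusted p 0.976). Ddx58, which encodes RIG-I, a sensor of viral RNA ends, was at 3.69, 8.20 and 6.35 CPM in libraries labelled KO and 4.73, 8.02 and 3.31 CPM in those labelled Het. Its groups overlapped over nearly their whole range, with a log2 fold change of 0.18 (standard error 0.51, edgeR adjusted p 0.982). Zbp1, a sensor of left-handed nucleic acid that can start necroptosis, had 0.312, 0.937 and 0 CPM in KO replicates 0, 1 and 2, against 0.386, 0.278 and 0.0843 CPM in the Het replicates. Its log2 fold change of 0.73 had a standard error of 1.54 and an edgeR adjusted p of 0.981, so no direction could be read. Dhx58 encodes LGP2, a regulator of the other RNA sensors, and ranged from 0.969 to 2.14 CPM in the KO group and from 0.643 to 2.17 CPM in the Het group. All 4 sensors had fitted values above 0, with a median log2 fold change of 0.39, and none passed the test. Over all genes tested, 7163 of 14632 had fitted values above 0. The sign was not steady for every sensor: it turned in 5 of 15 alternative fits for Zbp1 and in 3 of 16 for Ddx58.

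Of the transcription factors, Irf1, Irf9 and Stat2 were well covered and Irf7 was low. Irf1, the factor that carries much of the interferon gamma response to class I genes, was at 70.6, 60.1 and 66.4 CPM in libraries labelled KO and at 56.2, 50.9 and 50.1 CPM in those labelled Het. All KO libraries were above all Het libraries, with means of 65.7 ± 5.29 CPM in the KO group and 52.4 ± 3.28 CPM in the Het group (SD, n = 3 each). The fitted log2 fold change of 0.33 had a standard error of 0.18 and a 95% confidence interval of -0.08 to 0.74, and the edgeR adjusted p was 0.976. Permuting the labels of its log2 CPM (exact, two-sided) gave p = 0.1, and no smaller p is possible with 3 libraries a group. Irf9, the DNA-binding part of the complex with STAT2, was at 28.6, 20.2 and 25.7 CPM in libraries labelled KO, against 23.9, 14.8 and 15.3 CPM in those labelled Het. The Het group overlapped the KO group through Het replicate 0 alone, and the log2 fold change was 0.46 (standard error 0.28, edgeR adjusted p 0.976). Stat2, its partner, ranged from 20.0 to 30.9 CPM in the KO group and from 14.0 to 24.2 CPM in the Het group. Irf7, which amplifies the production of type I interferon, ranged from 3.15 to 6.13 CPM in the KO group and from 2.70 to 9.10 CPM in the Het group. Of these 4 factors, 3 had fitted values above 0. Their summed level was 132, 115 and 118 CPM in libraries labelled KO, against 108, 82.5 and 94.4 CPM in those labelled Het, with Irf1 as the main part of each sum.

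The IFIT genes encode proteins that bind foreign RNA and hold back its translation, and they lie in a cluster on chromosome 19. In the GRCm38.p6 annotation of RefSeq, Ifit2 spans 34550550 to 34576534, Ifit3 34583119 to 34588982, its near-identical copy Ifit3b 34607530 to 34613403 and Ifit1 34640889 to 34650009. Ifit3 showed the largest fitted difference of the 32 genes. It was at 1.12, 0.460 and 1.598 CPM in libraries labelled KO, from 68, 28 and 84 counts, and at 2.96, 5.15 and 5.34 CPM in those labelled Het, from 184, 185 and 190 counts. The highest KO library was below the lowest Het library, and the means were 1.06 ± 0.571 CPM in the KO group and 4.48 ± 1.32 CPM in the Het group (SD, n = 3 each). The fitted log2 fold change of -2.08 had a standard error of 0.72 and a 95% confidence interval of -3.71 to -0.45. The unadjusted edgeR p was 0.0179 and the adjusted p was 0.976, and DESeq2 gave an adjusted p of 0.160, so the difference did not pass in either tool.

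The other IFIT genes did not share that pattern. Ifit1 was at 3.45, 3.34 and 2.21 CPM in libraries labelled KO and at 2.46, 4.01 and 0.0562 CPM in those labelled Het. It was nearly missing from Het replicate 2, the library that stood apart, and otherwise the groups overlapped; the log2 fold change was 0.46 (standard error 1.10, edgeR adjusted p 0.981), and it was -0.11 without that library. Ifit2 was at 11.2, 20.1 and 13.2 CPM in libraries labelled KO, against 15.5, 15.6 and 15.1 CPM in those labelled Het. The Het libraries were nearly equal and lay within the range of the KO libraries, with a log2 fold change of -0.05 (standard error 0.30, edgeR adjusted p 0.999). Reads of Ifit3 can be divided between it and its copy Ifit3b in a way the sources used here do not give. Ifit3b was at 0.279, 1.56 and 0.647 CPM in libraries labelled KO and at 1.21, 1.23 and 0.365 CPM in those labelled Het, so that KO replicate 1, lowest for Ifit3, was highest for the copy. With both summed, a choice made after the values were seen, the level was 1.40, 2.02 and 2.25 CPM in libraries labelled KO, against 4.17, 6.38 and 5.70 CPM in those labelled Het. The groups stayed apart, and the libraries within each group were closer to each other than for Ifit3 alone. The sum had a log2 fold change of -1.52 (standard error 0.55, edgeR adjusted p 0.976).

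**Figure D3:**
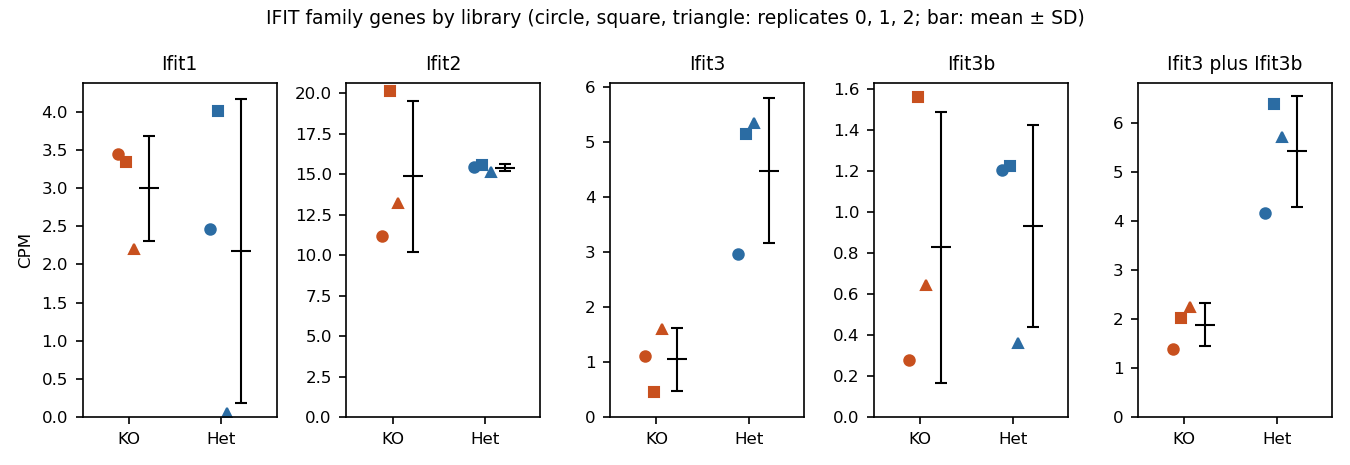
CPM per library of Ifit1, Ifit2, Ifit3, its copy Ifit3b and the sum of the last pair, for libraries labelled KO (orange) and Het (blue), with the mean and SD of 3 libraries beside the points and a separate vertical axis from 0 in each panel. The KO libraries lie at 0.460 to 1.598 CPM for Ifit3 and the Het libraries at 2.96 to 5.34 CPM, while the groups overlap for Ifit1, Ifit2 and Ifit3b.

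The OAS genes make or resemble the enzymes that activate RNase L, which degrades RNA. Oasl2, an OAS-like protein, ranged from 7.08 to 17.4 CPM in libraries labelled KO and from 9.10 to 19.6 CPM in those labelled Het. Oas1a had 5 counts in all, in KO replicate 2, where it was at 0.0951 CPM, and 0 counts in the other 5 libraries. A count of 0 allows a level of up to 0.0482 to 0.0843 CPM in a single library (3 counts, counting error only), so a difference between the groups was not detectable at this depth. Oas2 was listed at 0. From the wider list of interferon-stimulated genes, the OAS family genes Oas1b and Oas3 had counts in all 6 libraries, with Oas3 at 0.164 to 1.74 CPM in the KO group and 0.257 to 0.557 CPM in the Het group.

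Genes of the ISG15 pathway were scattered. Isg15, a ubiquitin-like protein attached to newly made proteins, was at 2.64, 1.64 and 1.12 CPM in libraries labelled KO and at 4.198, 2.56 and 2.02 CPM in those labelled Het. KO replicate 0 was above 2 of the 3 Het libraries, although each KO library was below the Het library of its number, and the log2 fold change was -0.70 (standard error 0.70, edgeR adjusted p 0.976). Usp18, the protease that removes ISG15 and damps the type I receptor, was at 1.33, 1.25 and 1.94 CPM in libraries labelled KO, against 3.73, 7.57 and 0.702 CPM in those labelled Het. The Het values straddled those of the KO group, with Het replicate 2 the lowest and Het replicate 1 the highest of all 6, and the log2 fold change was -1.41 (standard error 0.86, edgeR adjusted p 0.976). Trim25, a ubiquitin ligase that activates RIG-I, was at 18.1, 32.2 and 13.5 CPM in libraries labelled KO and at 19.3, 18.7 and 17.1 CPM in those labelled Het. KO replicate 1 stood above the rest, and the log2 fold change of 0.21 (standard error 0.34, edgeR adjusted p 0.981) became -0.22 without that library.

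Among the interferon-induced GTPases, Gbp2, which attacks the membranes of intracellular pathogens, was at 12.5, 9.97 and 11.2 CPM in libraries labelled KO and at 12.8, 21.1 and 16.4 CPM in those labelled Het. The groups did not overlap, though KO replicate 0 and Het replicate 0 were almost equal. The means were 11.2 ± 1.27 CPM in the KO group and 16.7 ± 4.14 CPM in the Het group (SD, n = 3 each), with a log2 fold change of -0.58, a standard error of 0.29 and an edgeR adjusted p of 0.976. Gbp3, from the same chromosome 3 cluster, lay the other way. It was at 2.30, 2.63 and 2.40 CPM in libraries labelled KO and at 2.09, 2.005 and 0 CPM in those labelled Het, and without the library at 0 the groups were close. Mx2, of the Mx family of GTPases, was at 0.509, 0.641 and 0.685 CPM in libraries labelled KO, against 1.79, 0.529 and 2.39 CPM in those labelled Het. Het replicate 1 lay within the KO range, and the log2 fold change was -1.35 (standard error 0.93, edgeR adjusted p 0.976). RefSeq annotates Mx1 and Mx2 as transcribed pseudogenes in the reference strain.

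The other effectors held 6 genes with fitted values below 0 and 2 above, and none passed the test. Ifi35, a regulator of the sensor pathways and the most abundant of them, was at 37.6, 32.7 and 31.6 CPM in libraries labelled KO and at 29.4, 43.2 and 58.1 CPM in those labelled Het. The Het libraries spread on both sides of the KO libraries, with a log2 fold change of -0.36 (standard error 0.27, edgeR adjusted p 0.976). Ifi44, a gene strongly induced by interferon, was at 1.40, 0 and 0.0190 CPM in libraries labelled KO, against 0.177, 2.65 and 1.49 CPM in those labelled Het. Both groups ran from near 0 to above 1 CPM, and the log2 fold change of -1.597 had a standard error of 1.82 (edgeR adjusted p 0.980). Rsad2, which encodes viperin, an enzyme that makes a chain terminator of viral RNA, was likewise uneven, at 0.197, 1.13 and 2.76 CPM in libraries labelled KO and 2.88, 2.28 and 0 CPM in those labelled Het. Of the remaining effectors, Bst2, Xaf1 and Rtp4 were steadier. Bst2, the tether that holds budding virus at the membrane, ranged from 6.83 to 9.28 CPM in the KO group and from 7.28 to 8.85 CPM in the Het group. Xaf1, a partner of apoptosis inhibitors, ranged from 5.75 to 8.47 CPM in libraries labelled KO and from 6.80 to 8.58 CPM in those labelled Het. Rtp4, a chaperone of receptors that is also antiviral, ranged from 8.49 to 13.1 CPM in the KO group and from 8.85 to 14.97 CPM in the Het group, so for these 3 genes the groups covered much the same levels. The ADP-ribosyltransferase family members Parp9 and Parp14 ranged from 10.5 to 19.0 and from 2.91 to 8.10 CPM in libraries labelled KO. In libraries labelled Het, Parp9 ranged from 11.9 to 14.4 CPM and Parp14 from 2.57 to 13.4 CPM, and both overlapped.

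Class I presentation was the most abundant part of the list. B2m, the light chain without which class I molecules do not reach the surface, lies on chromosome 2 and was at 134, 119 and 122 CPM in libraries labelled KO, against 144, 168 and 70.0 CPM in those labelled Het. The KO libraries were nearly equal, while Het replicates 1 and 2 were the highest and the lowest of all 6. The means were 125 ± 7.60 CPM in the KO group and 127 ± 51.0 CPM in the Het group (SD, n = 3 each), with a log2 fold change of -0.03, a 95% confidence interval of -0.70 to 0.65 and an edgeR adjusted p of 0.9996. The heavy chain H2-K1 was at 36.2, 22.6 and 26.96 CPM in libraries labelled KO and at 37.5, 19.0 and 17.9 CPM in those labelled Het. The heavy chain H2-D1 was at 63.5, 51.4 and 78.9 CPM in libraries labelled KO, against 62.9, 69.9 and 73.6 CPM in those labelled Het. For both heavy chains the groups overlapped, and because class I genes are alike and polymorphic, reads may be divided between them and their relatives.

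Tap1 encodes a chain of the peptide transporter and lies on chromosome 17 at 34187556 to 34197225. It is flanked by the genes of 2 immunoproteasome subunits, Psmb9 at 34182030 to 34187330 and Psmb8 at 34198195 to 34201454. Tap1 was at 33.4, 25.0 and 29.1 CPM in libraries labelled KO and at 29.3, 31.2 and 51.7 CPM in those labelled Het. Het replicate 2 stood above the rest, and the log2 fold change was -0.36 (standard error 0.27, edgeR adjusted p 0.976). Psmb8 was at 19.0, 10.1 and 12.8 CPM in libraries labelled KO, against 10.4, 10.5 and 11.7 CPM in those labelled Het. KO replicate 0 was the high library, and the log2 fold change was 0.36 (standard error 0.32, edgeR adjusted p 0.976). Psmb9 was at 2.53, 2.19 and 2.17 CPM in libraries labelled KO and at 3.04, 1.03 and 6.07 CPM in those labelled Het, where its values lay on both sides of the KO group. Of these 3 neighbours, Tap1 and Psmb9 were highest in Het replicate 2 and Psmb8 in KO replicate 0.

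Immunoproteasome subunits replace their constitutive counterparts in the proteasome, so the share of each pair was computed from FPKM. Psmb8 made up 8.01%, 5.01% and 4.80% of the sum of Psmb8 and Psmb5 in libraries labelled KO, against 3.76%, 4.59% and 14.0% in those labelled Het. The high value of Het replicate 2 went with a low level of Psmb5 there, 80.0 FPKM against 185 to 293 FPKM in the other 5 libraries. The means were 5.94% ± 1.80 in the KO group and 7.44% ± 5.67 in the Het group (SD, n = 3 each; exact two-sided permutation p = 1). Psmb9 made up 1.01%, 1.11% and 0.897% of its pair with Psmb6 in libraries labelled KO, against 1.19%, 0.468% and 1.92% in those labelled Het (n = 3 each, exact permutation p = 0.7). Psmb10, from the wider class I list, made up 26.5%, 23.7% and 28.8% of its pair with Psmb7 in libraries labelled KO and 19.9%, 20.5% and 61.1% in those labelled Het (n = 3 each, exact permutation p = 1). The constitutive subunits Psmb6 and Psmb7 were at 325 ± 49.7 and 64.0 ± 3.99 CPM in the KO group, against 371 ± 86.2 and 54.0 ± 24.6 CPM in the Het group (SD, n = 3 each). The order of the 3 subunits was the same in all libraries, with Psmb10 taking the largest share of its pair and Psmb9 the smallest.

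**Figure D4:**
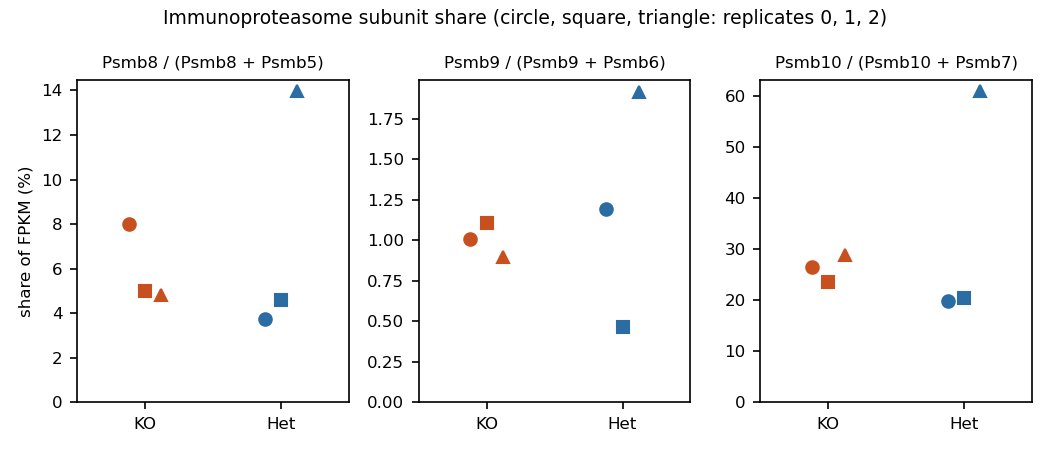
Share (%) of the immunoproteasome subunit in the summed FPKM of that subunit and its constitutive counterpart, per library, for libraries labelled KO (orange) and Het (blue), with a separate axis from 0 per panel. Psmb10 takes 19.9% to 61.1% of its pair and Psmb9 0.468% to 1.92%, and Het replicate 2 is the highest library in each panel.

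The upstream pathway was measured with further genes. Only 2 of 21 listed interferon genes had a row, Ifnk and Ifnz, with a summed level of 0.312, 0 and 0.133 CPM in libraries labelled KO and 0.177, 0.0557 and 0 CPM in those labelled Het. Transcripts of these 2 ligands were thus at or near 0 in both groups, and no level was read for the listed ligands without a row. Receptors and JAK-STAT genes had 13 tested members, 6 with fitted values below 0 and 7 above, and 0 past the adjusted threshold in edgeR or DESeq2. Ifngr1, a chain of the interferon gamma receptor and the most abundant of them, was at 194 ± 16.2 CPM in the KO group and 177 ± 18.8 CPM in the Het group (SD, n = 3 each). Jak2, a kinase bound to that receptor, was at 52.8 ± 13.9 CPM in the KO group and 39.2 ± 3.52 CPM in the Het group (SD, n = 3 each), and KO replicate 2 lay within the Het range.

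The list of sensor adaptors and other upstream factors had 11 tested members, 7 with fitted values below 0 and 4 above, and 0 were called by either tool. Ticam1, the adaptor of Toll-like receptor 3, was at 15.96 ± 3.11 CPM in the KO group and 24.0 ± 5.96 CPM in the Het group (SD, n = 3 each). Tmem173, which encodes STING, the adaptor of the cytosolic DNA sensor, was at 5.45 ± 3.40 CPM in the KO group and 8.61 ± 4.47 CPM in the Het group (SD, n = 3 each). Irf3, the factor they activate, was at 57.2 ± 4.82 CPM in the KO group and 60.3 ± 13.7 CPM in the Het group (SD, n = 3 each), and the groups overlapped for all 3 genes.

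Among 40 other interferon-stimulated genes tested, 24 had fitted values below 0 and 16 above, and again 0 were called. At an unadjusted edgeR p under 0.05 there was 1 gene in each direction, against 1.71% of all genes lower and 2.58% higher in libraries labelled KO. Parp12, an ADP-ribosyltransferase, was at 39.8, 48.2 and 36.0 CPM in libraries labelled KO, against 26.6, 32.2 and 22.1 CPM in those labelled Het (log2 fold change 0.62, standard error 0.23, edgeR adjusted p 0.976). Igtp, an immunity-related GTPase, was at 8.80, 9.33 and 7.67 CPM in libraries labelled KO, against 10.7, 11.7 and 27.7 CPM in those labelled Het (log2 fold change -0.96, standard error 0.41, edgeR adjusted p 0.976). For both genes the groups did not overlap, in opposite directions. Of the 40 genes, 2 had every library labelled KO below every library labelled Het, against 4.83% of all genes. The reverse held for 1, against 5.84%. The most abundant of the list was Ifitm2, a membrane protein that hinders virus entry, at 669 ± 114 CPM in the KO group and 685 ± 98.6 CPM in the Het group (SD, n = 3 each).

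The wider class I machinery had 15 tested genes, 7 with fitted values below 0 and 8 above, and 0 called. H2-M3, a class I molecule that presents formylated peptides, was at 1.08, 0.559 and 1.20 CPM in libraries labelled KO, against 1.93, 2.06 and 2.72 CPM in those labelled Het. Its groups did not overlap, with a log2 fold change of -1.24 (standard error 0.79, edgeR adjusted p 0.976). Psme2, a subunit of the proteasome activator, was at 115 ± 13.2 CPM in the KO group and 165 ± 68.2 CPM in the Het group (SD, n = 3 each). Pdia3, a chaperone of the loading complex, was at 1156 ± 169 CPM in the KO group and 1590 ± 876 CPM in the Het group (SD, n = 3 each), with Het replicate 2 far above the other libraries. Class II genes, which mark antigen-presenting leukocytes, had 5 tested members, 4 with fitted values below 0, and 0 called. Cd74, the invariant chain, was at 3.86, 6.72 and 14.3 CPM in libraries labelled KO, against 16.2, 2.62 and 8.71 CPM in those labelled Het, and H2-Ab1 averaged 4.07 ± 1.73 CPM in the KO group and 7.12 ± 4.28 CPM in the Het group (SD, n = 3 each). For both genes the groups overlapped. H2-Eb1, another class II chain, averaged 0.654 ± 0.148 CPM in the KO group and 1.53 ± 1.35 CPM in the Het group, and H2-DMb1, which helps to load class II peptides, 14.0 ± 2.79 CPM in the KO group and 16.6 ± 2.91 CPM in the Het group (SD, n = 3 each). In the receptor, adaptor, class I and class II lists, 0 genes had an unadjusted edgeR p under 0.05 in the main fit, which does not pair samples by replicate number.

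Summed over all 33 genes, the level was 593, 524 and 534 CPM in libraries labelled KO and 555, 580 and 521 CPM in those labelled Het. The 27 genes outside class I summed to 305, 293 and 262 CPM in libraries labelled KO, against 268, 281 and 290 CPM in those labelled Het. The 6 class I genes summed to 288, 231 and 272 CPM in libraries labelled KO, against 287, 299 and 231 CPM in those labelled Het. These sums varied by less than 1.5 times over all libraries, although single genes varied by far more. Of the 32 genes tested, the highest value fell in KO replicates 0, 1 and 2 for 5, 7 and 1 genes, and in Het replicates 0, 1 and 2 for 4, 7 and 8 genes. Het replicate 2 also held the lowest value of 8 genes, as many as KO replicate 1, so no single library carried the whole list up or down.

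Leukocytes carry many of these transcripts, and their markers were present. The 15 macrophage and leukocyte markers in the table summed to 39.7, 136 and 219 CPM in libraries labelled KO, against 33.4, 120 and 81.8 CPM in those labelled Het, and 14 of the 15 had fitted values above 0, with 0 called by edgeR or DESeq2. The 8 neutrophil markers summed to 89.3, 127 and 301 CPM in libraries labelled KO and 5.002, 475 and 314 CPM in those labelled Het. Of 7 tested, 5 had fitted values above 0 and 2 below, with log2 fold changes from -6.88 to 1.05. Among these 7, 0 were called by edgeR and 1 by DESeq2 (adjusted p 0.0133), which called 0.519% of all genes. Both lists varied by more than 5 times between libraries. Of 10 markers of plasmacytoid dendritic, T, B and NK cells, 7 had a row, with sums of 3.50, 17.1 and 17.1 CPM in libraries labelled KO against 2.43, 8.35 and 9.47 CPM in those labelled Het. Of the 4 tested, 3 had fitted values above 0, and the T cell marker Cd5 went the other way, at 0.0164, 0 and 0 CPM in libraries labelled KO against 0.450, 0.306 and 1.69 CPM in those labelled Het (edgeR adjusted p 0.664, DESeq2 adjusted p 0.0576). The 3 erythroid markers summed to 12.7, 43.6 and 41.3 CPM in libraries labelled KO, against 9.02, 21.1 and 15.2 CPM in those labelled Het. Siglech, which marks plasmacytoid dendritic cells, the main makers of type I interferon, was at 0.0657 to 0.115 CPM in the KO group and 0.0482 to 0.0843 CPM in the Het group. Endothelial markers summed to 14.8 to 25.2 CPM in libraries labelled KO and 24.9 to 50.5 CPM in those labelled Het. The part of these cells in the levels of the interferon and class I genes was not tested.

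**Figure D5:**
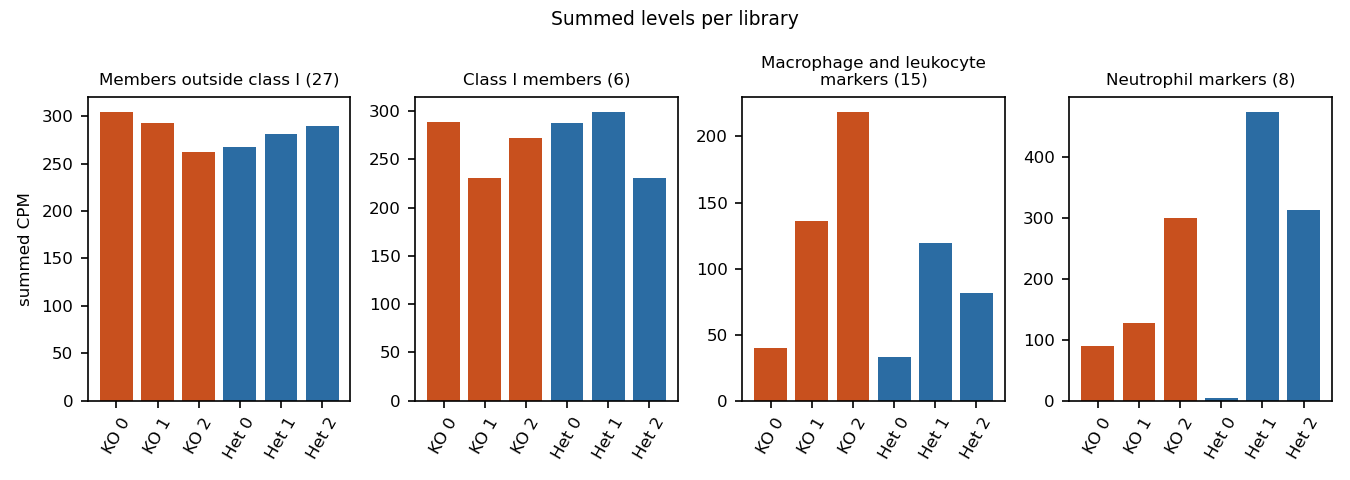
Summed CPM per library (bars from 0, libraries labelled KO in orange, then Het in blue) of the 27 genes outside class I, the 6 class I genes, 15 macrophage and leukocyte markers and 8 neutrophil markers, with a separate axis per panel. The first pair of panels is nearly level, at 262 to 305 and 231 to 299 CPM, while neutrophil markers run from 5.002 CPM in Het replicate 0 to 475 CPM in Het replicate 1.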

How the data were processed

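Per the labels' protocols, cDNA of the sorted cells was amplified (SMART-Seq low-input chemistry) and tagged with Nextera XT. Per the submitters' processing notes, the genome was mm10 and the tools were HTSeq, DESeq2, FastQC, Bowtie2 2.2.1, TopHat2 2.0.13, Cuffdiff and Cufflinks; neither the annotation nor the strand setting is stated. The authors deposited whole-number counts per gene symbol for 17213 genes, which are the main data. The authors also deposited estimated counts, rounded here before use, and FPKM values, used here to compare levels between genes. Of 198 values of these genes, 190 were equal within 1 count in both count tables. Reads carry no molecular identifiers, so floors at 0 counts cover only counting error.

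Sample titles gave the groups and the replicate numbers. The model used edgeR 4.0.16 (R 4.3.3), TMM scaling and quasi-likelihood F tests on the 14632 genes kept by filterByExpr. P-values were two-sided, adjusted by the Benjamini-Hochberg method over all genes with a threshold of 0.05, and the scripts were tested on simulated data. Standard errors were derived from the F statistic. Same-numbered samples deviated from their group means together (correlations of 0.220, 0.118 and 0.112, against -0.132 to -0.010 for other pairs). Deviations within a group sum to 0, so the values of other pairs follow in part from these and are no separate evidence. The numbers may thus pair the samples, although no label says so. Fold changes and p-values above are from fits without this pairing. A fit with the replicate block called 0 genes, and the smallest adjusted p of the genes described was 0.797. In that fit the log2 fold change was 1.36 for Ifit1 and -4.98 for Ifi44, against 0.46 and -1.60 without the block.

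The genes described and all lists were chosen with earlier results of these data known, although the rule for the genes uses symbols only. In each role group, a fold change is given for the 2 genes with the smallest unadjusted p and the most abundant gene; of each pathway list the same genes are named, with Cd74 and the constitutive proteasome subunits, and 1 gene is not reported here; the fold change of Gbp3 and the values of Psmb10, Siglech and Ifit3b are given besides these. Alternatives were a stricter filter or none, RLE scaling, limma 3.58.1 (voom with quality weights, and log2(FPKM + 1) or log2(FPKM + 0.1)), DESeq2 1.42.0, the newer edgeR method, the estimated counts, the replicate block and leaving out each library. The sum of Ifit3 and its copy was chosen after seeing the data.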

Additional observations from a re-analysis of the deposited data

How the results depend on the processing

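The count of 0 genes past the threshold became 87 in DESeq2 and 1 each in limma-voom, in edgeR's newer method and on log2(FPKM + 1), with or without a minimum FPKM of 1, and on log2(FPKM + 0.1); it was 0 to 1 with a library left out. None of the interferon and class I genes passed in any of 17 alternatives. The number with lower fitted values in libraries labelled KO was 13 of 23 tested on log2(FPKM + 1) with the minimum FPKM of 1. In the other alternatives it was 16 to 19, with 30 to 33 genes tested. The median log2 fold change of the genes was -0.19 (without KO replicate 1) to 0.00869 with a library left out. The fold change of Ifit3 was -2.50 to -1.05 over 18 alternatives, with adjusted p of 0.160 to 0.9999, and Irf1, Irf9, Ifih1, Gbp2, Usp18, Isg15, Mx2, Ifi35, Ifi44, Tap1 and Psmb8 kept their sign in all of theirs. Their size was less steady: leaving out 1 library took Ifi44 to -6.95 (without KO replicate 0), Usp18 to -0.56 (without Het replicate 1), Isg15 to -0.35 (without Het replicate 0), Ifi35 to -0.0947 and Tap1 to -0.0509 (both without Het replicate 2), and Psmb8 to 0.0863 (without KO replicate 0). The sign turned in some for 6 genes, and the cause was not tested. In limma-voom Zbp1 was at -0.92, Ddx58 at -0.15 and Trim25 at -0.00501. On log2(FPKM + 1) Zbp1 was at -0.0131 and B2m at 0.0606. With the minimum FPKM B2m was again at 0.0606, and Zbp1 was not tested. On log2(FPKM + 0.1) Zbp1 and B2m were at -0.14 and 0.0624. With the replicate block Zbp1 was at -0.37 and B2m at 0.0639, and the block changed no call. With a library left out, Zbp1 ranged from -0.67 to 1.31, Ddx58 from -0.0909 to 0.59, Ifit1 from -0.11 to 1.24, Ifit2 from -0.33 to 0.14, Trim25 from -0.22 to 0.45 and B2m from -0.32 to 0.22. Zbp1 and Ifi44, under 1 CPM on average, had standard errors of 1.54 and 1.82, so counts and spread limit them most.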
